A study of Homo sapiens with 90 samples.

Results

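Kallikrein-related peptidases are secreted serine proteases, made as inactive precursors and encoded side by side on chromosome 19. The 10 genes KLK5 to KLK14 were followed in BxPC-3, a human pancreatic adenocarcinoma cell line, over a week with or without cetuximab, a therapeutic antibody against the receptor EGFR. They were chosen by gene symbol, with every probe of each gene taken, which gave 18 probes among the 47292 on the array and 10 of the 20036 genes that a probe with a single gene symbol represents. The family was put forward because KLK13 was among the genes most reduced by cetuximab on days 1 to 7 in earlier work on these arrays, so the difference between the arms on those days is the value that chose it and is given here as a description with no test.

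The 2 arms were a negative control and cells kept in 10 µg/ml cetuximab from time 0, and both had been starved for 24 h in medium with 0.2% serum, after culture in 2% serum, before time 0. Each arm was sampled at time 0, after 5, 10 and 30 min, after 1, 2, 4 and 8 h and daily to day 7, with 3 arrays at each of the 15 times and 90 arrays in all. All arrays are of a single established line grown alone, so the groups model neither a tumour with its stroma nor other pancreatic lines. The labels number the replicates without saying that they came from separate cultures, so each p measures only the spread between these arrays, which may be technical.

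In skin and other lining epithelia, kallikreins act in a cascade in which an active member cuts the precursor of another, and inhibitors of the Kazal and serpin types hold them in check. KLK5, KLK7 and KLK14 are known from the shedding of the horny layer, where they cut desmosomal proteins, and trypsin-like members can also cut protease-activated receptors on the cell surface. In carcinomas of several organs members of the family are raised or silenced and have been studied as markers.

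Sequence upstream of the start is shown for the 3 members whose signal moved with time in culture, KLK10, KLK11 and KLK13. The RefSeq table (GRCh38.p14) held such windows for 9 of the 10 members, and the 250 bases before a listed start are printed 5′ to 3′ on the minus strand, the coding strand of these genes, with capitals marking GC boxes. The windows are chr19:51019862-51020111 for KLK10, chr19:51027647-51027896 for the start of KLK11 listed at the top and chr19:51026617-51026866 for its other start, and chr19:51065093-51065342 for KLK13.
KLK10: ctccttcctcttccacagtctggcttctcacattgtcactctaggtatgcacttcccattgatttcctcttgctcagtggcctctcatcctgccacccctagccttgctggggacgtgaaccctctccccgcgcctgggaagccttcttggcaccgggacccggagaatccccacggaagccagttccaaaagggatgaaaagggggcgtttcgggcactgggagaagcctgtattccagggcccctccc
KLK11, start 1: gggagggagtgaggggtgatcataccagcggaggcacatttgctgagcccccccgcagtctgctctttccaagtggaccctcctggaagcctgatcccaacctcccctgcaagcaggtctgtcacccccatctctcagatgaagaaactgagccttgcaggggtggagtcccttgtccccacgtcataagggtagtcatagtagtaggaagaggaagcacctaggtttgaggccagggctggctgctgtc
KLK11, start 2: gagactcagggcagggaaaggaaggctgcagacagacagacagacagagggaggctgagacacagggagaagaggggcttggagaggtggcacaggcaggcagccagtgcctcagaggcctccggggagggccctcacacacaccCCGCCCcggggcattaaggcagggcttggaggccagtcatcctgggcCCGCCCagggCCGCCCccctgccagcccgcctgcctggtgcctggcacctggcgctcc
KLK13: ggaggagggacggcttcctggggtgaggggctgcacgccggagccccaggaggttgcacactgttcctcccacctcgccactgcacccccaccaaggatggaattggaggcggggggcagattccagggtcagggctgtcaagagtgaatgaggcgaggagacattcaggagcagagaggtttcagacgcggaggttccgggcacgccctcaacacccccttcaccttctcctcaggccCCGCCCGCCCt
The motifs searched on both strands were the TATA box TATAAA, the GC box GGGCGG bound by Sp1, the AP-1 site TGANTCA and the EGR site GCGNGGGCG. A GC box and an EGR site can overlap. In the KLK13 window there were 2 overlapping GC boxes, beginning 11 and 7 bases before the start, and in the second KLK11 window there were 3, beginning 105, 58 and 48 bases before it. The KLK10 window and the window of KLK11 start 1 held none of the 4 motifs. KLK10 and KLK13 each have a second listed start that is not printed, whose window held no motif for KLK10 and the same pair of GC boxes for KLK13, 184 and 180 bases before that start. Of 27305 promoter windows of this length, 42.3% held a GC box, 11.1% the TATA box, 6.60% the AP-1 site and 8.25% the EGR site. GC content was 59.2% for KLK10, 58.4% and 69.6% for the KLK11 windows and 65.6% for KLK13, beside a median of 58.0% over all windows. These matches are letters in a window and not measured binding.

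The arrays as a whole were alike, with medians from 4.29 to 4.36 on the log2 scale, which is inferred from the range of the values, and correlations between replicates from 0.978 to 0.989. No 2 arrays were identical, and their number limits how precise each value below can be. All 6 epithelial or ductal markers were above the filter described next, with means from 7.00 for KRT18 to 12.02 for KRT19. Of 6 squamous markers 4 had a probe, and all 4 were above the filter. The 4 acinar markers all had a probe, and 0 were above the filter. Fibroblast markers were above it in 4 of 5 cases but no higher than a mean of 4.50, and the single leukocyte marker above it was CD68, at 7.61.

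Signal well above background at all times was seen for 2 members, KLK10 and KLK11. A probe was taken as measured where its mean over the 90 arrays reached 4.24, the median of all probe means, and 4 members with 5 probes passed: KLK6, KLK10, KLK11 and KLK13. The brightest was a KLK11 probe with a mean of 9.90 and single arrays from 8.97 to 10.62, and the brighter KLK10 probe had a mean of 6.21 and single arrays from 5.14 to 7.41. KLK13 had a mean of 4.43 and single arrays from 3.76 to 5.95. Over the 69 arrays other than the control days its mean was 4.237, beside a filter of 4.236, so outside those days it lay at the level of the filter. KLK6, a trypsin-like member abundant in the central nervous system, was just inside at 4.25 with single arrays from 3.60 to 4.80. Levels of different probes are not compared, since brightness depends on the probe.

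The other 6 members, KLK5, KLK7, KLK8, KLK9, KLK12 and KLK14, had no probe above the filter. With the second probes of KLK6 and KLK11 they made up 13 background probes, whose means ran from 3.83 to 4.14. The closest outside was the second probe of KLK11 at 4.144, which did not follow the bright one. Over these 13 probes single arrays ran from 3.03 to 5.29 and group means from 3.36 to 4.71, the days differed from time 0 in controls by -0.21 to 0.19 and the arms differed on days 1 to 7 by -0.11 to 0.10. The skin proteases KLK5, KLK7 and KLK14 are thus reported only as probes at background, which does not show that their transcripts were absent. KLK10 also had a second probe, with a mean of 4.34, that passed the filter but stayed between 3.78 and 4.82 on single arrays. It differed between control days and time 0 by -0.11, where the brighter probe differed by 1.24, so the 2 probes of KLK10 disagree. With the mean of both probes that difference was 0.562, the corresponding one in the cetuximab arm 0.573 and the step from 8 h to day 1 in controls 0.457, where the brighter probe gave 1.24, 1.23 and 0.85, and all 3 were still called.

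**Figure D1:**
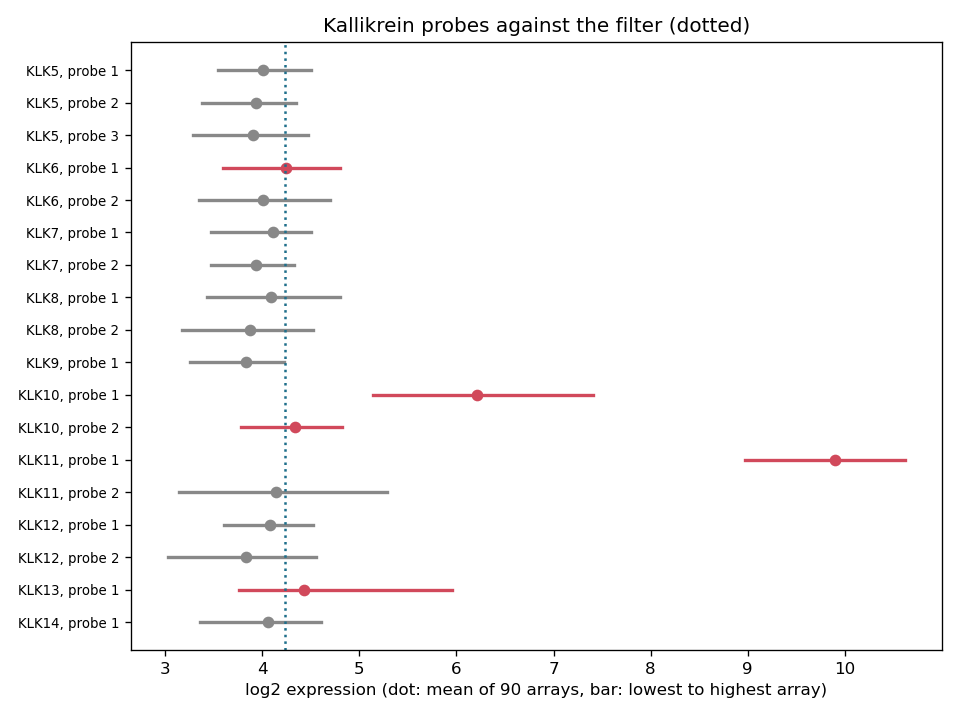
Each of the 18 kallikrein probes is drawn with its mean over 90 arrays (dot) and its lowest to highest array (bar) in log2 expression, in red where the mean reached the filter of 4.24 (dotted line). The bright probes of KLK10 and KLK11 lie wholly above the filter, KLK13 reaches 5.95, and the 13 grey probes have means from 3.83 to 4.14.

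Along chromosome 19 the 15 kallikrein genes are neighbours, with KLK1, KLK15, KLK3, KLK2 and KLK4 on 1 side of KLK5 to KLK14. KLK10 and KLK11 lie next to each other, between KLK9 and KLK12, which were both at background, and KLK12 separates KLK11 from KLK13. Of the 5 kallikreins outside KLK5 to KLK14 only KLK1, tissue kallikrein, passed the filter, with a mean of 4.48, and it did not pass the test between control days and time 0 (0.22 ± 0.10, limma adjusted p = 0.0769). Among the 10 genes that flank the cluster, 4 were tested, and CTU1 and C19orf48P fell on the control days by 0.37 and 0.18, where 21.1% of all genes were called lower.

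**Figure D2:**
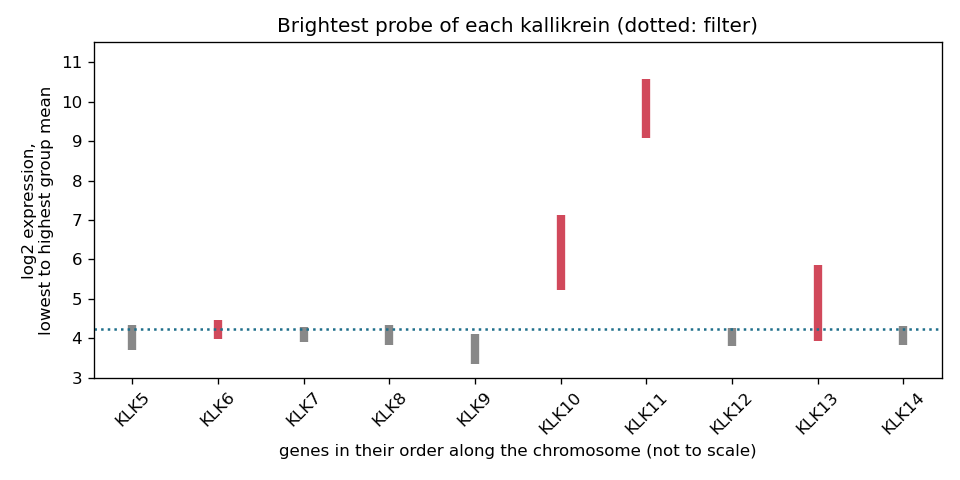
For the brightest probe of each gene, the bar runs from the lowest to the highest of the 30 group means in log2 expression, with the genes in chromosomal order and the filter of 4.24 dotted. KLK10 and KLK11 stand next to each other above the filter, KLK13 crosses it, and the grey bars are genes with all probes under it.

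In untreated cells KLK10 rose over the week. KLK10, first described as a gene of normal epithelial cells that is lost in breast cancer lines, read 5.76, 5.59 and 5.64 on the control arrays at time 0. It read 6.10, 6.19 and 5.95 on day 1, 7.05, 7.41 and 6.77 on day 2 and 7.13, 7.19 and 7.06 on day 4, and was still at 6.77, 6.92 and 6.84 on day 7. All control arrays of the days were above all those of time 0, and the mean of the 7 days was higher by 1.24 ± 0.077 (difference ± SE, a 2.36-fold level, limma adjusted p = 4.54e-23). In RNA from whole wells, a change in the number of cells of a kind and a change in RNA per cell cannot be told apart.

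KLK11, a trypsin-like protease, was already bright at time 0, at 9.78, 9.95 and 9.87. On the control arrays it read 9.30, 9.41 and 9.45 on day 1, 10.28, 10.25 and 10.49 on day 3, 10.54, 10.62 and 10.54 on day 5 and 10.11, 10.17 and 10.17 on day 7. Day 1 thus lay below time 0 and day 5 above it, and the mean of the 7 days was higher than time 0 by 0.32 ± 0.067 (1.25-fold, limma adjusted p = 4.07e-05).

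KLK13, a trypsin-like member studied in oral and oesophageal squamous epithelium, had the most peaked course. Control arrays read 4.12, 4.25 and 3.96 at time 0, 5.21, 5.14 and 5.34 on day 2 and 5.75, 5.88 and 5.95 on day 4, and came back to 4.65, 4.34 and 4.28 on day 7. The control days averaged 0.95 ± 0.12 above time 0, where the mean of 4.11 was under the filter, so no fold is given. The control day arrays belong to the comparison that put KLK13 forward, so for this gene that difference is a description with no test. KLK6 differed by 0.03 ± 0.12 (limma adjusted p = 0.875).

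KLK13 left out, 2 of the 3 other measured members were called higher on the control days, where 24.9% of 12735 tested genes were, and their median was 0.321 beside 0.009 over all genes. With no filter, 2 of the 9 other members were called, where 3093 of 20036 genes were called higher. In the cetuximab arm 2 of the 3, KLK10 and KLK6, were called higher on the days than at time 0, beside 25.2% of all genes, with a median of 0.340 beside 0.002. KLK10 there rose by 1.23 ± 0.077 (limma adjusted p = 6.79e-23), from 5.34, 5.64 and 5.43 at time 0 to 6.86, 6.75 and 6.70 on day 4. KLK11 differed by 0.03 ± 0.067 (adjusted p = 0.734) and KLK13, with no test, by 0.37 ± 0.12. KLK6 was called at 0.34 ± 0.12 (adjusted p = 0.0107), but its cetuximab arrays at time 0 read 4.25, 3.60 and 4.08, and without the array at 3.60 the difference was 0.152 (adjusted p = 0.384).

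A trough at 8 h came before the rise for both bright members. KLK11 read 10.02, 10.12 and 9.88 on the control arrays at 4 h and 9.03, 8.97 and 9.24 at 8 h, below every control array of time 0, and fell from time 0 to 8 h by 0.79 ± 0.089 (1.72-fold, limma adjusted p = 2.52e-11). KLK10 read 5.16, 5.39 and 5.14 at 8 h and fell by 0.43 ± 0.10 (1.35-fold, adjusted p = 0.000398). That call was lost without replicate 1 (-0.349, adjusted p = 0.0634), and the mean of its probes gave -0.28. KLK13 and KLK6, both near the filter, did not pass (-0.08 and 0.06, limma adjusted p = 0.765 and 0.820). The 2 members called lower of 4 stood beside 16.0% of all genes, with a median of -0.254 beside 0.016.

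From 8 h to day 1 the control arrays rose for KLK10 by 0.85 ± 0.10 (limma adjusted p = 1.34e-10) and for KLK11 by 0.30 ± 0.089 (adjusted p = 0.00474), while KLK13 differed by 0.61 ± 0.16, a description as above, and KLK6 by -0.10 (adjusted p = 0.667). The KLK11 call was lost without replicate 2 (0.238, adjusted p = 0.187) and when only the groups compared were fitted (adjusted p = 0.0641). KLK13 left out, 2 of 3 were called higher, beside 16.6% of all genes. The cetuximab arm had the same trough in its values, with KLK11 at 9.93, 10.07 and 10.32 at 4 h and at 9.13, 9.11 and 9.33 at 8 h.

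**Figure D3:**
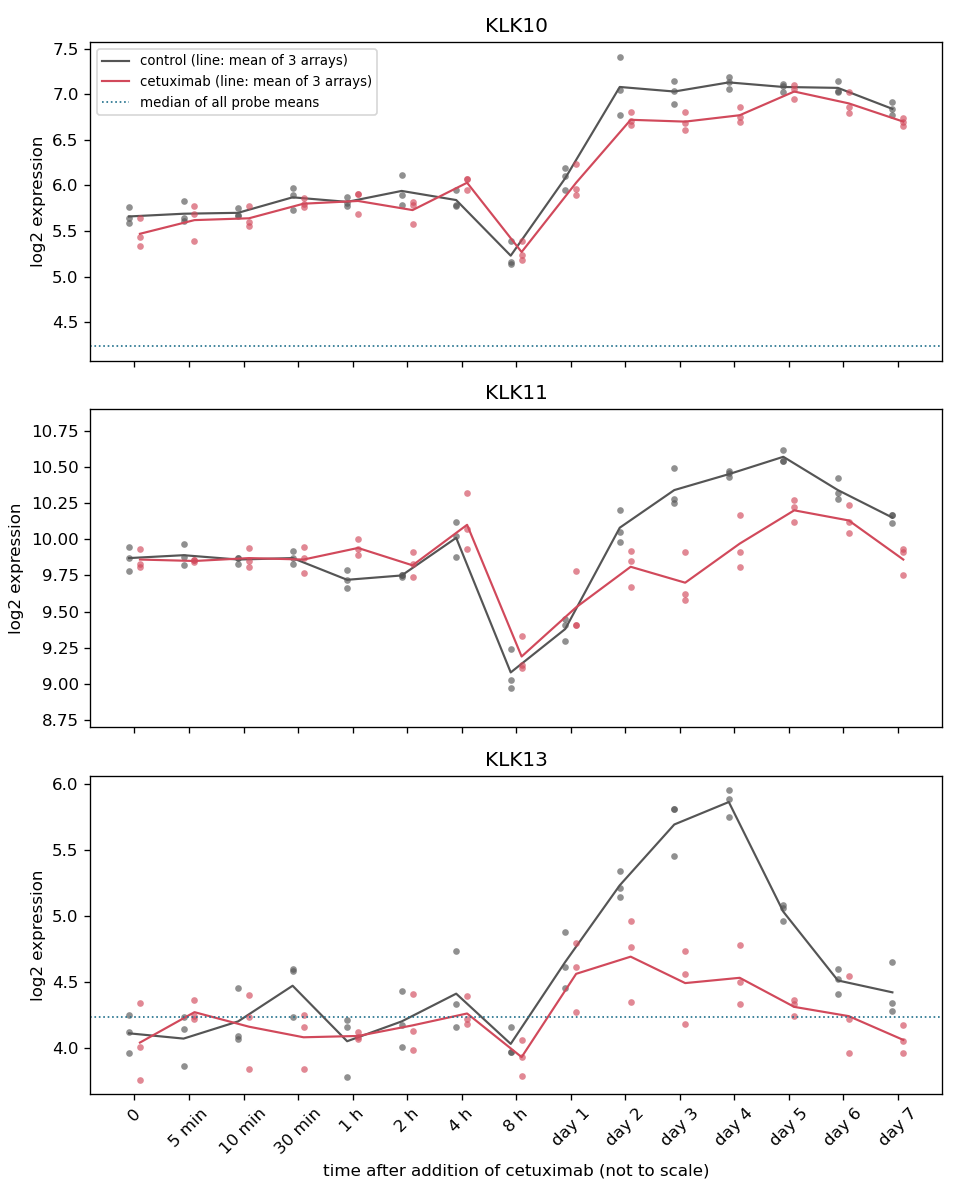
Log2 expression of KLK10, KLK11 and KLK13 at the 15 times, which are not spaced to scale, with a point for each array, a line through the group means, control in grey and cetuximab in red. KLK10 and KLK11 dip at 8 h in both arms, and the control mean of KLK13 climbs to 5.86 on day 4 while the cetuximab mean stays at or below 4.69.

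Within the days the courses were not straight, and a straight-line slope depended on the end days. Per day the control slope was 0.11 ± 0.012 for KLK11 (limma adjusted p = 1.93e-12) and 0.08 ± 0.014 for KLK10 (adjusted p = 2.83e-07). KLK13 left out, 2 of 3 members were called rising, beside 26.2% of all genes. The slope of KLK13, over arrays of the comparison that chose it, was -0.10 ± 0.021, with no test and nothing read from the 22.7% of all genes that were called falling. Without day 1 the slope was 0.0138 for KLK11 (adjusted p = 0.490) and -0.031 for KLK10 (adjusted p = 0.141), so both rises rested on the low first day. Without day 7 the slope of KLK13 was -0.0319, again with no test.

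Before day 1 cetuximab gave no called difference in any of the 4 measured members. KLK13 and KLK6 lay near the filter, with control means of 4.21 and 4.22 from 5 min to 8 h. A fall with cetuximab could hardly have shown for these 2 members. At time 0, when 2.48% of genes were called, 0 of 4 members were, and 0 had an unadjusted p under 0.05. The lowest was KLK10, at -0.19 ± 0.10 (limma adjusted p = 0.375). Over the 7 times from 5 min to 8 h, 0 of 4 were called by their mean difference, beside 10.1% of all genes, and 1 had an unadjusted p under 0.05. That was KLK11, higher with cetuximab by 0.067 ± 0.034 (limma adjusted p = 0.225). KLK10 differed by -0.02 ± 0.038, KLK13 by -0.07 ± 0.060 and KLK6 by 0.04 ± 0.058.

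An F test for a difference at any of these times called 0 of 4 members, beside 4.55% of all genes, and 0 at an unadjusted p under 0.05, with limma adjusted p from 0.647 for KLK11 to 1.0 for KLK6. At single times every cetuximab array was above every control array for KLK11 at 1 h (9.89, 10.00 and 9.93 against 9.72, 9.79 and 9.66), as for 8.14% of genes. The same held for KLK10 at 4 h (6.07, 6.07 and 5.95 against 5.95, 5.79 and 5.78), as for 7.46%, though the values of 5.95 differ only beyond the digits printed. The other early times had overlapping groups for all 4 members, of which KLK13 and KLK6 lay near the filter.

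From day 2 the 2 arms parted, by the comparison through which the family was found. KLK13 was lower with cetuximab on days 1 to 7 by 0.64 on average (-0.64 ± 0.060), with the cetuximab level near the filter and no fold given. Over the 21 arrays the control values ran from 4.28 to 5.95 with a median of 5.06, and the cetuximab values from 3.96 to 4.96 with a median of 4.35. On day 3 the cetuximab arrays read 4.56, 4.18 and 4.73 against 5.45, 5.81 and 5.81. On day 4 they read 4.33, 4.78 and 4.50 against 5.75, 5.88 and 5.95, the largest difference of the 7 days. On day 1 the groups overlapped, with 4.61, 4.27 and 4.79 against 4.45, 4.61 and 4.88. The difference went from -0.09 on day 1 through -0.54, -1.20 and -1.33 to -0.72, -0.27 and -0.36 on day 7. It was largest on days 3 and 4, when the control mean, which is itself part of the difference, was highest.

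KLK11 was lower with cetuximab by 0.30 ± 0.034 on average (-0.30, 1.23-fold), with control values from 9.30 to 10.62 around a median of 10.28 and cetuximab values from 9.41 to 10.27 around 9.91. It was 0.15 higher on day 1 and differed most on day 3 (-0.64, 1.55-fold), at 9.58, 9.62 and 9.91 against 10.28, 10.25 and 10.49. By day 5 the cetuximab arrays had come to 10.22, 10.12 and 10.27, still below the controls at 10.54, 10.62 and 10.54.

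KLK10 was lower by 0.21 ± 0.038 on average (-0.21, 1.15-fold), with medians of 7.04 in controls and 6.74 with cetuximab. It differed by -0.35, -0.32 and -0.36 on days 2 to 4 and by -0.04 on day 5, when the arrays read 7.10, 6.95 and 7.06 against 7.09, 7.03 and 7.11. Taken relative to the arms' difference at time 0 its late difference was -0.0127, and with the mean of its 2 probes it was -0.0638. KLK6 differed by 0.08 ± 0.058, and by 0.311 relative to time 0. By replicate number the average late difference was -0.61, -0.65 and -0.67 for KLK13, -0.32, -0.35 and -0.23 for KLK11 and -0.14, -0.35 and -0.13 for KLK10.

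In the table of all genes 5.96% were called lower with cetuximab on the days, and KLK10, KLK11 and KLK13 were among them, from which nothing is read because this contrast chose the family. Every cetuximab array lay below every control array for none of the members on day 1 (5.33% of all genes), for KLK11 and KLK13 on day 2 (6.83%), for KLK10, KLK11 and KLK13 on day 3 (6.79%) and day 4 (7.70%), for KLK11 and KLK13 on day 5 (6.52%), for KLK11 on day 6 (7.01%) and for KLK10, KLK11 and KLK13 again on day 7 (7.13%).

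Some markers of other cell states or types also differed between the arms on the days. The squamous marker SPRR1B was lower with cetuximab on the days (-0.40 ± 0.054, limma adjusted p = 1.4e-08), 1 of 4 measured squamous markers, and the macrophage-associated lysosomal gene CD68 was lower too (-0.21 ± 0.052, adjusted p = 0.00211), with the other leukocyte markers, PTPRC and CD3E, under the filter. Of 4 measured fibroblast markers LUM was called, higher by 0.24 ± 0.061 (adjusted p = 0.00309). The summed log2 level of the 4 squamous markers ran from 24.48 to 28.41 over the control days and from 24.07 to 27.95 over the cetuximab days, and that of the 4 fibroblast markers from 16.73 to 17.76 and from 16.75 to 17.91. The summed squamous level already differed at time 0, at 26.21 in controls and 24.49 with cetuximab. Of the 6 epithelial or ductal markers KRT7 was called between the arms on the days (0.11 ± 0.032, adjusted p = 0.014). These marker calls stand beside 7.39% of all genes called higher and 5.96% called lower on the days. On the control days against time 0, 24.9% of all genes were called higher and 21.1% lower. Of the 6 epithelial or ductal markers KRT7 fell by 1.04 ± 0.063, KRT18 rose by 0.41 ± 0.10 and KRT8 rose by 0.24 ± 0.097. Of the 4 squamous markers KRT5 rose by 0.71 ± 0.078 and KRT14 fell by 0.60 ± 0.090. CD68 fell by 0.67 ± 0.10. Of the 4 fibroblast markers LUM rose by 0.31 ± 0.12, while COL1A1, DCN and COL1A2 differed by -0.18, -0.17 and -0.09. The markers not named here were not called, nor were COL1A1, DCN and COL1A2. The part of all these markers in the kallikrein values was not tested.

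A straight-line change of the difference from day 1 to day 7, which the average does not use, was called for none of KLK6, KLK10 and KLK11. Of all genes 1.34% were called, and none of these members had an unadjusted p under 0.05. The slopes per day were -0.03 ± 0.017 for KLK11 (limma adjusted p = 0.463), 0.01 ± 0.019 for KLK10 and -0.01 ± 0.029 for KLK6. For KLK13, over arrays of the comparison that chose it, the slope was 0.01 ± 0.030, with no test. A course that deepens and then recedes, as that of KLK13 did, has little slope.

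**Figure D4:**
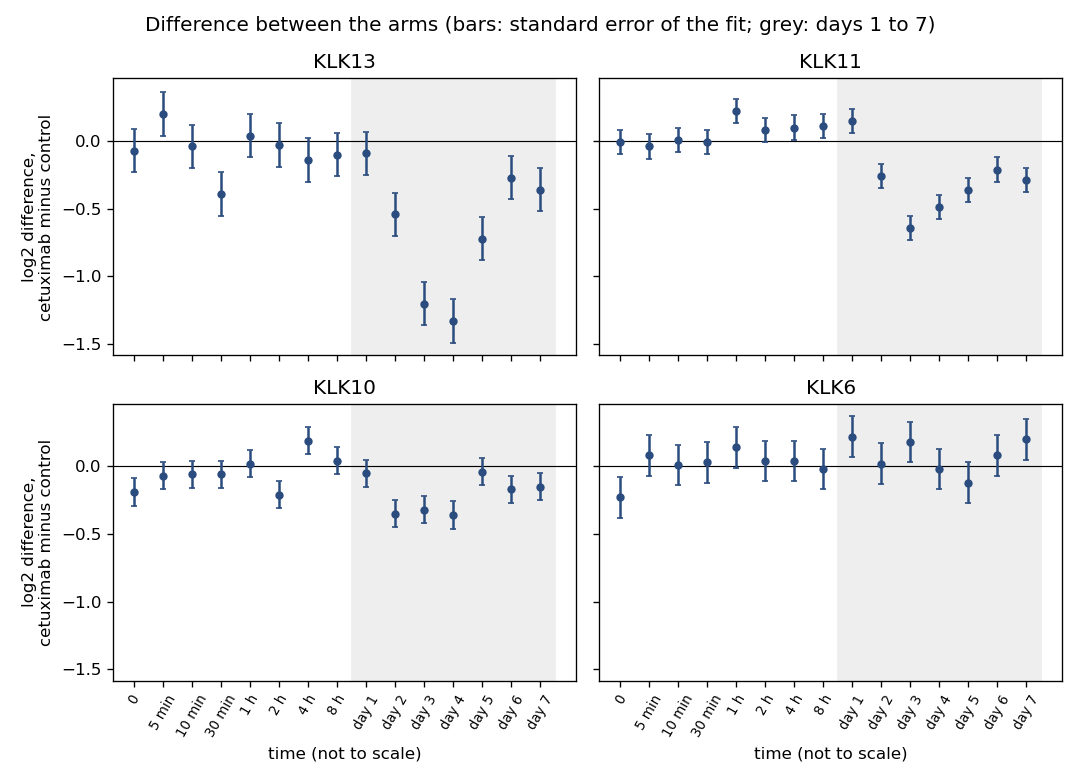
Cetuximab minus control in log2 expression at each time, which are not spaced to scale, with the standard error of the fit as bars and days 1 to 7 shaded. KLK13 reaches -1.33 on day 4, KLK11 reaches -0.64 on day 3, KLK10 stays between -0.36 and 0.19, and KLK6 stays between -0.23 and 0.22.

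Over the 30 group means, which share arrays with every comparison above, KLK10 and KLK11 had a Pearson correlation of 0.709, KLK10 and KLK13 of 0.688 and KLK11 and KLK13 of 0.553, given as descriptions. Outside the family the genes most like KLK13 were CNTN1, a neural adhesion molecule (0.898), the tight-junction claudin CLDN8 (0.868), MRAP2 (0.837), the DNA repair protein NBN (0.827) and ACP6 (0.826). KLK10 was nearest to SLC67A1 (0.962), TMEM134 (0.954), PGD, an enzyme of the pentose phosphate pathway (0.953), TAPBPL (0.951) and the cation channel TRPM4 (0.950). KLK11 was nearest to SRPX2 (0.831), the monocarboxylate transporter family member SLC16A5 (0.829), HPGD, which inactivates prostaglandins (0.811), the sodium channel subunit SCNN1A (0.801) and CTBS (0.799). For KLK6, at background level, the nearest were IVL (0.646), NR2E1 (0.635), APOL6 (0.559), TSPAN17 (0.551) and IGSF11 (0.540).

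Of 10 inhibitors of kallikreins or of their activators, 5 were measured, and 2 rose on the control days, with 0 lower, beside 24.9% of all genes called higher and 21.1% lower. PI3, elafin, a secreted inhibitor of elastase-like proteases, rose by 0.51 ± 0.093 (limma adjusted p = 3.74e-06), and SPINT2, an inhibitor of membrane-bound serine proteases, by 0.22 ± 0.062 (adjusted p = 0.0025). Between the arms limma called 0 of 5 in the early window, beside 10.1% of all genes, and 1 had an unadjusted p under 0.05. On the days PI3 was higher with cetuximab by 0.38 ± 0.046 (adjusted p = 1.46e-09), beside 7.39% of all genes called higher. The other 4 were not called, and the list median was -0.019.

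Of 10 activators and other epithelial serine proteases, 6 were measured, with 1 higher and 4 lower on the control days, beside 24.9% and 21.1% of all genes, and a list median of -0.364. PRSS3, mesotrypsin, fell by 1.48 ± 0.080 (limma adjusted p = 4.32e-26) and the urokinase gene PLAU by 0.60 ± 0.064 (adjusted p = 8.28e-13), while the channel-activating protease prostasin, PRSS8, rose by 0.69 ± 0.16 (adjusted p = 0.00016). Between the arms limma called 0 of 6 in the early window, beside 10.1% of all genes, and 1 had an unadjusted p under 0.05. On the days TMPRSS4 was lower with cetuximab by 0.29 (-0.29 ± 0.035, adjusted p = 6.97e-10) and PRSS3 by 0.13 (-0.13 ± 0.040, adjusted p = 0.0179). PRSS8 was higher by 0.28 ± 0.078 (adjusted p = 0.0074). Of all genes 5.96% were called lower and 7.39% higher.

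Of 14 substrates and receptors, 9 were measured, with 3 higher and 1 lower on the control days, beside 24.9% and 21.1% of all genes, and a list median of 0.082. Filaggrin, FLG, rose by 1.21 ± 0.15 (limma adjusted p = 1.03e-10), the desmosomal cadherin DSG3 by 0.52 ± 0.11 (adjusted p = 4.7e-05) and the adhesion molecule L1CAM by 0.32 ± 0.13 (adjusted p = 0.0409), while the urokinase receptor PLAUR fell by 1.11 ± 0.10 (adjusted p = 1.67e-15). E-cadherin, CDH1, was the single member called in the early window, lower with cetuximab by 0.17 (-0.17 ± 0.037, adjusted p = 0.000649), beside 10.1% of all genes called in either direction. Desmocollin DSC2 was the single member called on the days, higher by 0.14 ± 0.047 (adjusted p = 0.0367), beside 7.39% of all genes called higher. All of these values are transcript levels, and neither protease protein nor activity was measured.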

How the data were processed

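Total RNA of BxPC-3 cells was hybridised to 1-colour Illumina HumanHT-12 v4 arrays, 90 in all. The values the authors deposited are taken as log2 expression, from their range of 0.26 to 13.76; limma is named in the submitters' processing notes, and how they were background-corrected and normalized is not given in the sources used here. All arrays entered as deposited. Among the 47292 probes, the platform annotation gives a single gene symbol to 30096, several to 8 and none to 17188. Dim probes (mean under 4.24) were left out, the probe with the highest mean stood for a gene, and 12735 genes were fitted by lmFit and eBayes (limma 3.58.1, R 4.3.3), each of the 30 groups having its own mean, which left 60 residual degrees of freedom. Tests were two-sided with Benjamini-Hochberg adjustment over all genes and a threshold of 0.05, and the procedure was tested on simulated data.

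The members, the lists and the tests were chosen with earlier results of these data known. All members and probes were named, and of other lists up to 3 genes with the largest differences per comparison, together with those the counts needed; likeness named the 5 highest correlations per member. The alternatives were median centring, quantile normalization, no filter, a filter at 4.39, averaging the probes of a gene, array weights, a trended robust prior, only the groups compared, a replicate block and leaving out each replicate number. Added after seeing the data were leaving out single arrays or times, time 0 to 2 h as the base, and differences relative to time 0.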

Additional observations from a re-analysis of the deposited data

How the results depend on the processing

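Over 79 alternatives, 12 planned and the rest added after seeing the data, 267 recomputed counts of members called, KLK13 included, stayed within 1.5 times of those reported and 4 did not. For KLK13 the values on the days are a description with no test, so nothing is read from its part in these counts. A fall from 3 to 2 lies within that range, as does a count of 0 that stayed at 0. Leaving out replicates moved the count for control 8 h against time 0 between 1 and 2, and that for cetuximab days against time 0 between 1 and 3. The latter was 1 without replicate 2 and without the cetuximab time 0 array of replicate 2, when KLK6 (0.144, adjusted p = 0.369, and 0.152, adjusted p = 0.384) and KLK13 dropped out. KLK6 was also not called with time 0 to 2 h as the base (0.102, adjusted p = 0.128). Without day 1 the count of rising control slopes and falling ones together was 1, that of KLK13, and the KLK10 slope turned to -0.031. Averaging the probes of KLK10 lowered its control slope from 0.0831 to 0.0503 per day, still called. With the replicate block the count on control days against time 0 stayed at 3, KLK13 included. Of 12735 genes 5991 were then called in either direction. The block changed no call of KLK6, KLK10 or KLK11. Same-numbered arrays of the arms had correlated deviations over 0.1 in 26 of 43 pairs (-0.0361 to 0.573, median 0.13), so such arrays can share variation. The labels do not say what a number stands for, and the main fit did not pair the arrays.

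Over the alternatives the late difference ran from -0.738 to -0.531 for KLK13, from -0.374 to -0.243 for KLK11 and from -0.247 to -0.0127 for KLK10. The counts behind the background shares moved more. At time 0, 316 genes were called, but 540 with array weights, 48 with only the groups compared, 120 and 42 without replicates 1 and 2, and 131, 159 and 197 without single arrays. In the early window 1280 became 751, 309 and 763 without replicates 1, 2 and 3 and 162 relative to time 0. For any early time 580 became 1149 with array weights, 233, 33 and 203 without the replicates and 351 without 4 h. For the slope of the difference 171 became 60, 46 and 85 without the replicates. On the days 1700 became 920 without replicate 2 and 465 relative to time 0. The causes were not tested. KLK13 and KLK6 lie close to background, where the array limits what can be seen.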
